A study of Mus musculus with 6 samples.

Results

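Spliceosome genes and genes of splicing regulators were described in whole mouse embryos of embryonic day 8.5, 3 of them wild type and 3 their Tcof1+/- littermates, which carry 1 altered copy of Tcof1. Members were the probe sets whose platform annotation gives a single gene symbol from 1 of 6 families. These are the Snrp genes of the Sm ring and the small nuclear ribonucleoproteins (snRNPs), the Sf3a and Sf3b genes, the U2af genes, the numbered Prpf genes, the Srsf genes of the SR proteins and the Hnrnp genes. The rule found 174 of 45037 probe sets, which stood for 62 of 18193 named genes. A gene was summarised by its probe set with the highest mean over the 6 arrays. Each embryo had its own Affymetrix Mouse Genome 430 2.0 array, where a probe set measures a transcript through several short probes. The sources used here name neither the strain nor how the Tcof1 allele was made, and whole embryos hold all tissues of the stage.

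Splicing removes introns from nuclear transcripts, and the spliceosome that does so is assembled anew on each intron from snRNPs. Sm proteins form a ring around most of the small nuclear RNAs, the U2AF heterodimer reads the 3 prime splice site, SF3a and SF3b hold the branch point, and many PRPF proteins sit in the tri-snRNP and the catalytic core. SR proteins and hnRNPs bind exons and introns and shift the choice of splice sites, often in opposite directions. Tcof1 encodes treacle, which acts in the nucleolus in making ribosomal RNA, and its human counterpart is the main gene of Treacher Collins syndrome, a disorder of the face. Several core spliceosome genes are mutated in other human syndromes of the face.

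Signals were in arbitrary units, with the same trimmed mean of 150 on every array. Tcof1, which checks the labels, was lower in all heterozygotes, at 382, 393 and 387 in the wild types and 222, 179 and 231 in the heterozygotes. Its log2 difference was -0.88 (limma adjusted p = 0.035); the call was lost when any 1 array was left out, with adjusted p from 0.0606 to 0.194. It was also lost with scan day as a block (0.0933), with the replicate block (0.186) and without an intensity trend in the prior (0.416). Heterozygous embryo 1 stood apart for primitive red cell markers, with a summed signal of 320.1 over the 9 of 10 listed genes on the array, against 7491 and 11368 in the other heterozygotes and 5883 to 13883 in wild types. Sums of 10 neural markers were 2411 to 2581 in wild types and 1759.6 to 2121 in heterozygotes. Sums of 8 cardiac markers were 9784 to 11601 in wild types and 10487 to 13335 in heterozygotes, of 7 endothelial markers 831 to 1167 in wild types and 1022 to 1062 in heterozygotes, and of 7 paraxial mesoderm markers 1393 to 1965 in wild types and 1302 to 1456 in heterozygotes. Those of 7 yolk sac endoderm markers were 1853 to 9571 in wild types and 837 to 14852 in heterozygotes. For trophoblast and decidua 3 of 6 markers were on the array, with sums of 60.8 to 71.4 in wild types and 58.9 to 71.4 in heterozygotes, and Tpbpa and Prl8a2 were too dim to be tested. None of these marker genes passed in limma, and their part in the values of splicing genes was not tested. Xist was high in 2 wild types and 1 heterozygote. Embryos 1 and 2 of both genotypes were scanned on 1 day and embryo 3 of both on another. No fluidics module held both genotypes, so module and genotype cannot be told apart.

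No splicing gene passed the test for a difference between the genotypes. Of the 174 probe sets 162 were bright enough to be tested, for 61 of the 62 genes, and 0 of 162 passed (limma, adjusted p under 0.05). Over the array 22 of 27022 tested probe sets passed (0.0814%), 21 higher in heterozygotes (0.0777%) and 1 lower (0.0037%). The smallest adjusted p among members was 0.644, for a probe set of Sf3b1. At an unadjusted p under 0.05 there were 21 members (13.0%), against 6.19% of all tested probe sets and 10.9% of those with a mean signal of 1000 or more. Of these 21, 15 were higher and 6 lower, against 2.98% and 3.21% of all tested probe sets. Of the 2442 probe sets with a mean signal of 1000 or more, 164 were higher and 102 lower at that threshold. Splicing genes are bright on this array: for 47 of the 61 the brightest probe set had a mean of 1000 or more. Counted by gene, on the brightest probe set, 11 of 61 splicing genes (18.0%) had an unadjusted p under 0.05, against 6.86% of all tested genes. Among the 47 bright splicing genes there were 11 (23.4%), against 10.2% of the 1533 bright genes of the array. The 21 became 6 (3.70%) when array medians were made equal, against 4.36% of all probe sets. With a prior that had no intensity trend there were 4 (2.47%), against 5.71%. Under every other alternative the members' share stayed above that of all tested probe sets. It was 12.3% against 6.39% with quantile normalization, 11.1% against 5.69% with scan day as a block and 9.26% against 5.04% with the replicate block. With 1 array left out the lowest share was 7.98%, against 5.84%, without heterozygous embryo 3. These shares were not compared with those of bright probe sets. In whole embryos, fewer cells of a type and less RNA per cell cannot be told apart.

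The differences were small and most intervals narrow. Differences are given as heterozygous minus wild type on the log2 scale, after 1.87 was added to each signal, and each is followed by its 95% interval, not adjusted for the number of genes, and limma's adjusted p. Over the 61 genes they ran from -0.23, for Sf3b5, to 0.37, for Prpf40b, or 0.853-fold to 1.29-fold. Their median was 0.054, and that of all 12873 tested genes -0.011. Above 0 were 42 of 61 splicing genes (68.9%), against 47.4% of all tested genes and 54.8% of those with a brightest probe set of 1000 or more; 19 were below 0, against 52.6% of all. For 59 of 61 genes the interval lay within a 1.5-fold change in either direction, and for 43 within 1.25-fold. The exceptions at 1.5-fold were Prpf40b, at 45.2 to 60.1 in wild types and 55.4 to 79.3 in heterozygotes, and Srsf12, at 8.90 to 18.3 in wild types and 10.8 to 21.4 in heterozygotes. Srsf12 was the dimmest tested gene, with a mean signal of 15.9 just inside the limit on dim probe sets, and a probe set of Sf3b2 lay just outside it, with 14.2. Sf3b5, Prpf40b and Srsf12 are named after their values were seen.

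**Figure D1:**
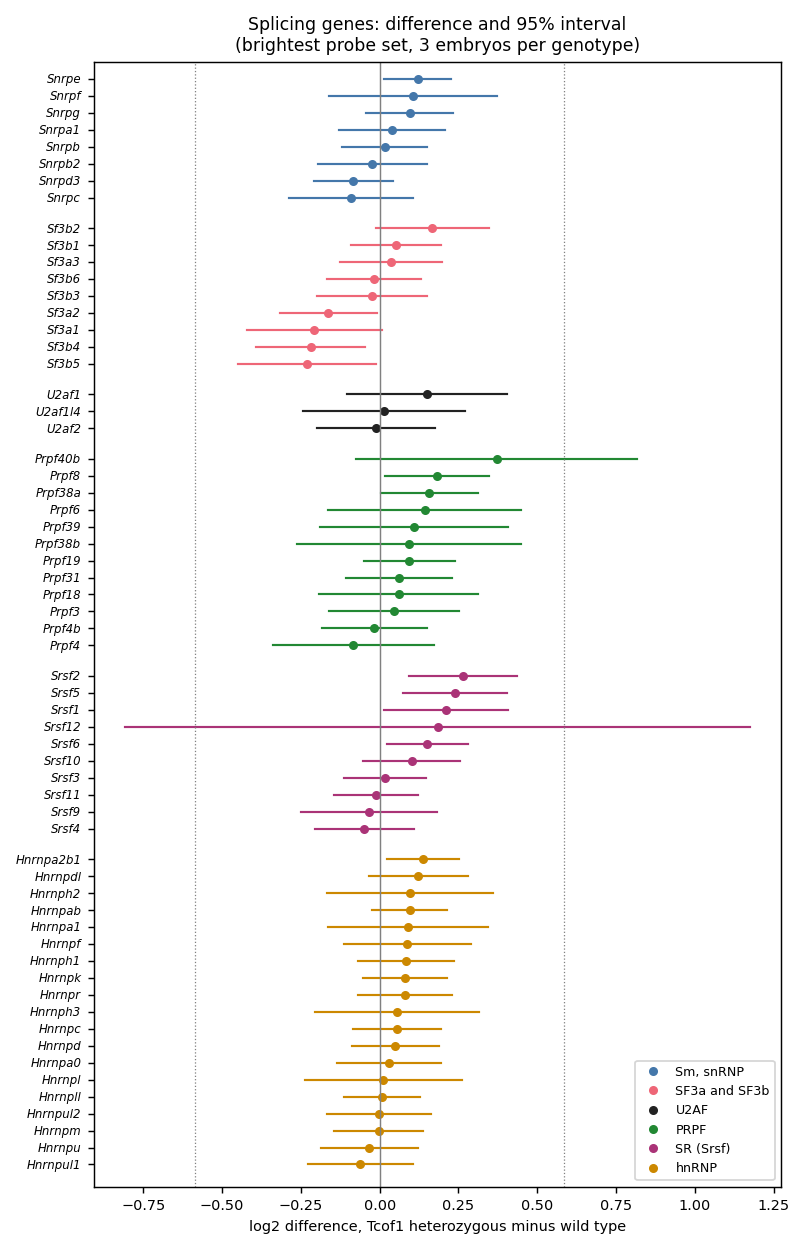
Log2 difference between Tcof1 heterozygous and wild-type embryos (x axis) for the 61 tested splicing genes (y axis), on the brightest probe set of each gene. Points are limma estimates from 3 embryos per genotype, bars are 95% intervals, and dotted lines mark a 1.5-fold change; the bars of 59 genes stay between the lines, and those of Prpf40b and Srsf12 do not.

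The groups did not overlap for 26 of the 162 probe sets (16.0%), against 12.2% of all tested probe sets and 17.7% of those with a mean signal of 1000 or more. Of these, 17 were higher in heterozygotes and 9 lower, against 5.98% and 6.19% of all tested probe sets. Of the 2442 probe sets with a mean signal of 1000 or more, 263 were higher and 170 lower without overlap. With equal array medians the count of splicing probe sets was 11, and the share over all tested probe sets was not counted under that setting. Among the 61 genes the groups did not overlap for 12 (19.7%), against 13.0% of all tested genes and 17.9% of those with a brightest probe set of 1000 or more. Higher were 9 (Snrpe, Sf3b2, Prpf8, Prpf38a, Srsf2, Srsf5, Srsf6, Srsf10 and Hnrnpa2b1), against 5.71% of all tested genes and 11.0% of the bright ones. Lower were 3 (Sf3a1, Sf3a2 and Sf3b4), against 7.32% and 6.91%. Srsf10 is named only for this count, after its values were seen.

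Among the Snrp genes, of the Sm ring and other snRNP proteins, differences were small. Of 9 genes 8 were tested, 5 above and 3 below 0, with a median difference of 0.027 and a range from -0.090 to 0.12. The median was -0.029 when a gene's probe sets were averaged, 0.012 with equal array medians or quantile normalization, and -0.0025 (heterozygous embryo 2 left out) to 0.045 (wild-type embryo 1 left out) with 1 array left out. Snrpe, which encodes Sm protein E, had signals of 5435, 5675 and 5683 in wild-type embryos 1, 2 and 3, and 6005, 6129.5 and 6118 in heterozygous embryos 1, 2 and 3. All heterozygotes lay above all wild types (log2 difference 0.12, 0.015 to 0.23, adjusted p = 0.774). Snrpg, of Sm protein G, was at 5088 to 5876 in wild types and 5591 to 5882 in heterozygotes, with overlap (log2 difference 0.10, -0.044 to 0.23, adjusted p = 0.849). Its dimmer probe set was lower in every heterozygote, at 369.9 to 395 in wild types and 300.0 to 325 in heterozygotes (log2 difference -0.30, adjusted p = 0.697). Snrpd3, of Sm protein D3, was at 3665 to 4007 in wild types and 3584 to 3686 in heterozygotes (log2 difference -0.083, -0.21 to 0.042, adjusted p = 0.849). Snrpc, of the U1-specific protein C, was at 1723, 1437 and 1396 in the wild types and 1467, 1407 and 1389 in the heterozygotes, with wild-type embryo 1 above all others (log2 difference -0.090, -0.29 to 0.11, adjusted p = 0.887). Without that embryo its difference was 0.0045. The single-symbol probe set of Snrpn, the imprinted paralogue of Snrpb, was too dim to be tested, with a mean signal of 13.5. A further 6 probe sets name both Snrpn and Snurf; with 12 others that name several genes they are not analysed here. Snrpa, Snrpd1, Snrpd2 and Hnrnpa3 are named only on such probe sets.

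SF3a and SF3b genes encode subcomplexes of the U2 snRNP, and 6 of 9 were below 0. Their median difference was -0.024, -0.039 with equal array medians and -0.020 with quantile normalization. Averaging the probe sets of each gene gave -0.045. On the brightest probe sets the median was -0.0078 with heterozygous embryo 1 left out, -0.050 with embryo 2 and -0.055 with embryo 3, and -0.076 with wild-type embryo 2 left out. Sf3a2 had signals of 1874, 2009 and 1801 in wild-type embryos 1, 2 and 3, and 1629.6, 1705 and 1740.0 in heterozygous embryos 1, 2 and 3. Every heterozygote was below every wild type (log2 difference -0.16, -0.32 to -0.0099, adjusted p = 0.785). Its far dimmer second probe set differed by -0.26, with overlap. Sf3b5, of a small SF3b subunit, was at 2411 to 2936 in wild types and 2094 to 2607 in heterozygotes, with overlap (log2 difference -0.23, -0.45 to -0.012, adjusted p = 0.787). Sf3a1 was at 537 to 636 in wild types and 483 to 509 in heterozygotes, without overlap (log2 difference -0.21, -0.42 to 0.0076, adjusted p = 0.799). Its next brightest probe set differed by 0.072, with overlap. The dimmest tested was at 69.6 to 86.3 in wild types and 61.1 to 64.9 in heterozygotes, without overlap (log2 difference -0.27). Sf3a1, too, is named after its values were seen. Sf3b1, the large scaffold of SF3b and a gene often mutated in blood cancers, was at 2618 to 2795 in wild types and 2657 to 2963 in heterozygotes (log2 difference 0.052, -0.089 to 0.19, adjusted p = 0.908). The probe set with the smallest p of all members is another of Sf3b1, at 1009, 1217 and 1246 in the wild types and 1411, 1549.9 and 1383 in the heterozygotes. It was higher in every heterozygote (log2 difference 0.33, adjusted p = 0.644), while the dimmest differed by -0.0053.

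The U2AF genes did not separate the genotypes. U2af2, of the large subunit that binds the polypyrimidine tract, was at 916, 994 and 852 in the wild types and 932, 869 and 934 in the heterozygotes (log2 difference -0.012, -0.20 to 0.17, adjusted p = 0.986). U2af1, of the small subunit that reads the AG at the 3 prime splice site, was at 2344, 1768 and 1728 in the wild types and 2209, 1971 and 2246 in the heterozygotes (log2 difference 0.15, -0.10 to 0.40, adjusted p = 0.862). Wild-type embryo 1 had the highest value and the other wild types the lowest. U2af1l4, a paralogue of the small subunit, was at 246 to 299 in wild types and 265 to 301 in heterozygotes (log2 difference 0.015, -0.24 to 0.27, adjusted p = 0.986).

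PRPF genes, whose products belong to the tri-snRNP and other assemblies of the spliceosome, were above 0 for 10 of 12. Their median difference was 0.094, 0.078 with equal array medians and 0.083 with quantile normalization, and 0 passed. With wild-type embryo 2 left out it was 0.049. Prpf8, the large protein at the heart of the catalytic core, had signals of 1514, 1603 and 1545 in wild-type embryos 1, 2 and 3, and 1795, 1882 and 1623 in heterozygous embryos 1, 2 and 3. The lowest heterozygote, embryo 3, lay just above the highest wild type (log2 difference 0.18, 0.017 to 0.35, adjusted p = 0.780). Within the first scan day Prpf8 differed by 0.24, and within the second by 0.071. Prpf38a, needed to activate the assembled spliceosome, was at 1067, 1029 and 1070.0 in the wild types and 1143, 1199 and 1190.3 in the heterozygotes, without overlap (log2 difference 0.16, 0.0053 to 0.31, adjusted p = 0.793). Prpf4, a tri-snRNP protein gene, was at 265 to 288 in wild types and 238 to 296 in heterozygotes (log2 difference -0.083, -0.34 to 0.17, adjusted p = 0.919). Prpf4b, of a kinase that acts on the spliceosome, was at 1011 to 1037 in wild types and 949.7 to 1051 in heterozygotes (log2 difference -0.017, -0.18 to 0.15, adjusted p = 0.976). Prpf38b had the widest range over its probe sets in this family, from -0.11 to 0.64. On its brightest, wild-type embryo 2 was at 461, and the other embryos were at 629 to 720.4 (log2 difference 0.094, -0.26 to 0.45, adjusted p = 0.931).

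SR proteins carry an RNA-binding domain and a tail rich in arginine and serine, and recruit the splicing machinery to exons. Of 10 genes 7 were above 0 and 0 passed. The median difference was 0.13, 0.11 with equal array medians, and 0.12 with quantile normalization. It was 0.063 when the probe sets of each gene were averaged, 0.044 with heterozygous embryo 3 left out, 0.048 with wild-type embryo 1 left out and 0.062 on the first scan day alone. Srsf2, also called SC35, had signals of 2883, 3372 and 3419.7 in wild-type embryos 1, 2 and 3, and 3723, 3771 and 4099 in heterozygous embryos 1, 2 and 3. All heterozygotes lay above all wild types (log2 difference 0.26, 0.092 to 0.44, adjusted p = 0.654). Its 3 dimmer probe sets were all below 0, at -0.19, -0.047 and -0.14, with overlap. Srsf5, which has a single probe set here, had signals of 2662, 2482 and 2360.3 in wild-type embryos 1, 2 and 3, and 2719, 3139.9 and 3002 in heterozygous embryos 1, 2 and 3. Again the groups did not overlap, and heterozygous embryo 1 was close to wild-type embryo 1 (log2 difference 0.24, 0.074 to 0.40, adjusted p = 0.684). Srsf1, a founding member of the family, was at 4523 to 5771 in wild types and 5576 to 5951 in heterozygotes, with overlap (log2 difference 0.21, 0.015 to 0.41, adjusted p = 0.785). Its 6 tested probe sets ranged from -0.17 to 0.26, and Srsf1 is named after its values were seen. Srsf4 was at 1682 to 1897 in wild types and 1688 to 1817 in heterozygotes (log2 difference -0.048, -0.21 to 0.11, adjusted p = 0.921), and Srsf9 at 1843 to 2445 in wild types and 1999.9 to 2068 in heterozygotes (log2 difference -0.033, -0.25 to 0.18, adjusted p = 0.961). Wild-type embryo 2 had the highest value for both.

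The hnRNPs are abundant nuclear RNA-binding proteins that coat new transcripts, and many of them repress splice sites. Of 19 genes, all tested, 15 were above 0 and 0 passed. Their median difference was 0.056, 0.041 with equal array medians and 0.026 with quantile normalization. It was 0.032 with heterozygous embryo 3 left out, 0.032 with wild-type embryo 2 left out and 0.11 with wild-type embryo 3 left out. The range was narrow, from -0.061 to 0.14, and for 17 of the 19 the interval lay within a 1.25-fold change. Hnrnpa2b1 had signals of 5523, 5971 and 5866 in wild-type embryos 1, 2 and 3, and 6484, 6390.4 and 6214 in heterozygous embryos 1, 2 and 3. Its groups did not overlap (log2 difference 0.14, 0.024 to 0.25, adjusted p = 0.765). Its 4 probe sets gave closer values than those of any other splicing gene with 4 or more, from 0.14 to 0.17. Hnrnpab was at 6834 to 7374 in wild types and 7233 to 7874 in heterozygotes (log2 difference 0.10, -0.024 to 0.22, adjusted p = 0.825). Hnrnpul1 was at 787 to 829.7 in wild types and 769 to 798 in heterozygotes (log2 difference -0.061, -0.23 to 0.10, adjusted p = 0.908). Hnrnpu, also known as SAF-A and a scaffold of chromatin, was at 3952 to 4648 in wild types and 4016 to 4176 in heterozygotes (log2 difference -0.032, -0.19 to 0.12, adjusted p = 0.946). Wild-type embryo 2 was the highest of the 6 for Hnrnpu, and without it the difference was 0.041. The 5 tested probe sets of Hnrnpu ranged from -0.32 to 0.34.

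Genes of the spliceosome and the exon junction complex that are mutated in human facial syndromes formed a list of 7, of which 6 were tested and 0 passed. Of the 6, 4 were above and 2 below 0, with a median of 0.021. Sf3b4, the gene of Nager syndrome, had signals of 1914, 1828 and 1705 in wild-type embryos 1, 2 and 3, and 1581, 1441 and 1658 in heterozygous embryos 1, 2 and 3. All heterozygotes were below all wild types, at 0.859 of the wild-type level (log2 difference -0.22, -0.39 to -0.046, adjusted p = 0.731). Within the first scan day Sf3b4 differed by -0.31, and within the second by -0.040. Its dimmer probe set was at 491, 801 and 569 in the wild types and 605, 307 and 450.5 in the heterozygotes, with overlap (log2 difference -0.47, adjusted p = 0.815). Sf3b2, linked to craniofacial microsomia, was at 1486, 1504 and 1436 in the wild types and 1559, 1848 and 1579 in the heterozygotes. Heterozygous embryo 2 was the highest and the groups did not overlap (log2 difference 0.17, -0.012 to 0.35, adjusted p = 0.803). Its 6 tested probe sets ranged from -0.13 to 0.31, and the second brightest gave -0.014.

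Snrpb, the gene of Sm proteins B and B prime and of cerebro-costo-mandibular syndrome, was at 3547, 3438 and 3322 in the wild types and 3399.9, 3676 and 3349 in the heterozygotes (log2 difference 0.016, -0.12 to 0.15, adjusted p = 0.972). Its other probe set gave 0.012. Eftud2, the snRNP GTPase gene of mandibulofacial dysostosis with microcephaly, was at 2401, 2241 and 2108 in the wild types and 2242, 2379.8 and 2307 in the heterozygotes (log2 difference 0.039, -0.11 to 0.19, adjusted p = 0.933). Txnl4a, a small tri-snRNP protein gene of Burn-McKeown syndrome, was at 1151, 1186 and 1019.6 in the wild types and 1172, 1172 and 1071 in the heterozygotes (log2 difference 0.027, -0.16 to 0.21, adjusted p = 0.966). The groups overlap for these 3 genes, and their intervals lie inside a 1.25-fold change in either direction. Puf60, a polypyrimidine tract factor gene of Verheij syndrome, was at 1618, 1652 and 1385 in the wild types and 1355, 1344 and 1489.9 in the heterozygotes (log2 difference -0.15, -0.34 to 0.043, adjusted p = 0.825). Heterozygous embryo 3 lay above wild-type embryo 3. Eif4a3, of the exon junction complex, was at 1.35 to 3.84 and was not tested.

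**Figure D2:**
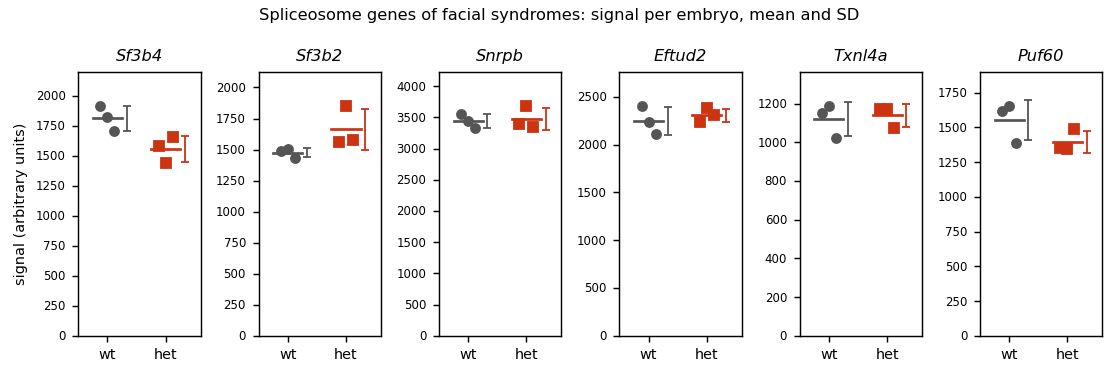
Signal in arbitrary units (y axis, from 0, scaled for each gene) in each wild-type (wt, grey circles) and Tcof1 heterozygous embryo (het, red squares) for 6 spliceosome genes of human facial syndromes. Horizontal lines are means and error bars are SD over 3 embryos; the groups do not overlap for Sf3b4 (lower in heterozygotes) and Sf3b2 (higher), overlap for the other genes, and 0 passed the test.

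The families were also followed embryo by embryo, as the median deviation of their genes from each gene's mean over the 6 embryos, on the scaling the authors gave. SF3a and SF3b genes were at 0.030, 0.0039 and 0.021 in wild-type embryos 1, 2 and 3 and -0.047, -0.033 and -0.019 in heterozygous embryos 1, 2 and 3, a small separation without overlap. SR genes were at -0.064, 0.0033 and -0.071 in wild-type embryos 1, 2 and 3 and 0.012, 0.067 and 0.10 in heterozygous embryos 1, 2 and 3, again without overlap, though heterozygous embryo 1 and wild-type embryo 2 were close. These separations hold on the brightest probe set of each gene. Over all tested probe sets, SF3a and SF3b were at -0.026 to 0.021 in wild types and -0.024 to -0.0042 in heterozygotes. SR probe sets were at -0.028 to 0.018 in wild types and -0.0095 to 0.044 in heterozygotes, so both families overlapped. On the brightest probe sets of PRPF and hnRNP genes heterozygous embryo 1, at -0.011 and -0.0053, lay inside the range of the wild types. The 61 genes together were at -0.023, -0.031 and 0.0050 in wild-type embryos 1, 2 and 3 and -0.0053, 0.046 and 0.030 in heterozygous embryos 1, 2 and 3. Heterozygous embryo 2 was also the highest for the 1533 genes of the array with a brightest probe set of 1000 or more. These were at -0.013, 0.0068 and -0.011 in wild-type embryos 1, 2 and 3. In heterozygous embryos 1, 2 and 3 they were at -0.0029, 0.032 and 0.0015. The median difference of the 61 splicing genes was 0.065 within the first scan day, 0.023 within the second and 0.020 without heterozygous embryo 2. Without heterozygous embryo 1, the embryo short of red cell markers, it was 0.064.

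**Figure D3:**
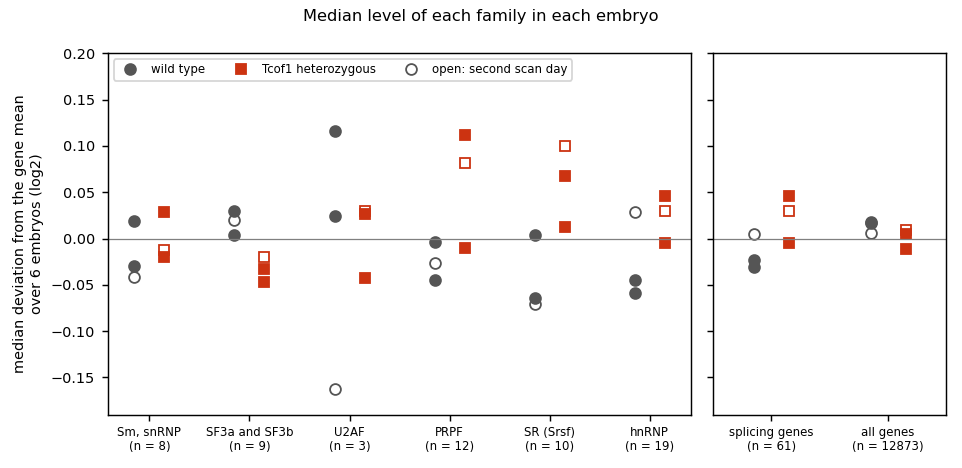
Median deviation of a family's genes from each gene's mean over 6 embryos (y axis, log2) for 6 families, all 61 splicing genes and all 12873 tested genes (x axis, n genes). Each point is 1 embryo, grey circles wild type and red squares Tcof1 heterozygous, open symbols the second scan day. On the brightest probe set of each gene, shown here, the genotypes separate for SF3a and SF3b (lower) and SR genes (higher). Over all tested probe sets of these families they overlap.

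Probe sets of the same gene often differed in direction. Of 41 genes with 2 or more tested probe sets, 19 had all differences on the same side of 0 (13 above, 6 below) and 22 had both signs. The range between the lowest and the highest difference of a gene had a median of 0.21 and a maximum of 0.83. Srsf6 showed this at signals far above the limit on dim probe sets, and is named after its values were seen. Its brightest probe set was at 2564 to 2694 in wild types and 2829 to 2999.7 in heterozygotes, higher in every heterozygote (log2 difference 0.15). Another was at 754.9 to 860.6 in wild types and 641.6 to 754.7 in heterozygotes, lower in every heterozygote by a margin that was close to 0 for embryo 3 (log2 difference -0.25). Hnrnpr had the maximum range. Its probe set at 502, 1178 and 359 in the wild types and 349, 373 and 407 in the heterozygotes differed by -0.67, where wild-type embryo 2 stood far above the rest. The brightest probe set of Hnrnpr was at 2404 to 2757 in wild types and 2641 to 2779 in heterozygotes (log2 difference 0.080, -0.069 to 0.23, adjusted p = 0.868). In the SR family the widest range was that of Srsf11, up to 0.48 on a dim probe set at 31.3 to 64.5 in wild types and 47.8 to 88.1 in heterozygotes. The brightest of Srsf11 was at 2534 to 2769.8 in wild types and 2625 to 2693 in heterozygotes (log2 difference -0.011, -0.14 to 0.12, adjusted p = 0.980). The positions of these probe sets in the transcripts were not used here. Of the 174, 42 have names ending in s_at or x_at, which Affymetrix gives to probe sets that may bind several transcripts. For 12 of the 62 genes the brightest probe set has such a name. Among them are Snrpe, Sf3a2, Sf3b2 and Srsf2, whose groups did not overlap, and Snrpb, Snrpg, Sf3b5 and Hnrnpab. The brightest probe set of Clns1a, described below, also has such a name.

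**Figure D4:**
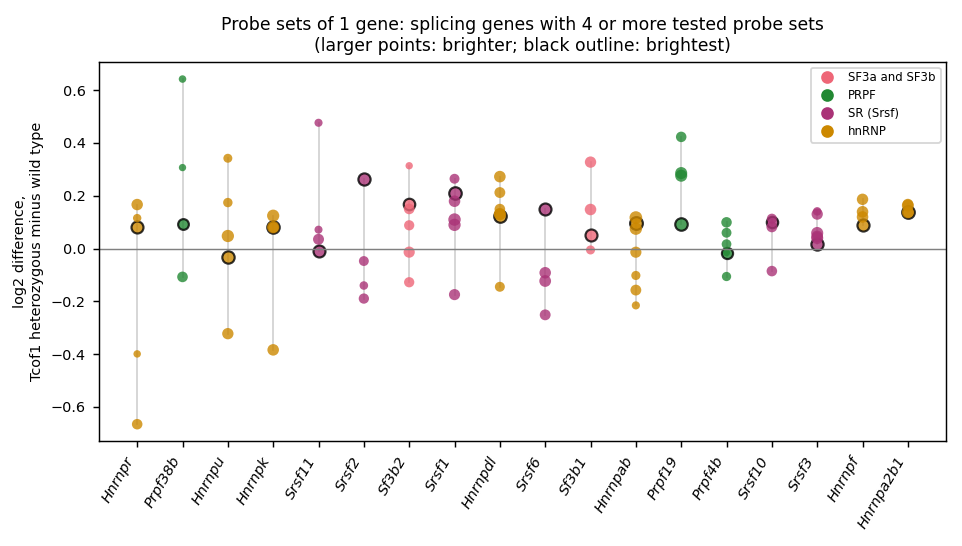
Log2 difference between Tcof1 heterozygous and wild-type embryos (y axis) for each tested probe set of the 18 splicing genes with 4 or more (x axis), ordered by the range within a gene. Point size grows with signal and a black outline marks the brightest probe set; values range from -0.67 (Hnrnpr) to 0.64 (Prpf38b), and the 4 of Hnrnpa2b1 lie between 0.14 and 0.17.

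Other genes of the splicing pathway were taken from 4 lists of 115 genes, of which 104 were tested and 0 passed in limma. The lists include Eftud2, Txnl4a, Puf60 and Eif4a3, which were described above with the facial syndrome genes. Of the 104 tested, 51 were above and 53 below 0, with a median difference of -0.00090. At an unadjusted p under 0.05 there were 8 (7.69%), against 6.86% of all tested genes. Of 24 other snRNP genes, 11 above and 13 below 0, Snrnp25, of the minor spliceosome, was at 895 to 962 in wild types and 749 to 799 in heterozygotes (log2 difference -0.26, -0.43 to -0.095, adjusted p = 0.644). Ddx23, a tri-snRNP helicase gene, was at 26.4 to 31.7 in wild types and 45.5 to 47.8 in heterozygotes (log2 difference 0.63, 0.16 to 1.09, adjusted p = 0.721). Of 16 genes of the LSm ring and snRNP assembly, 9 above and 7 below 0, Clns1a was at 5483 to 5916 in wild types and 6049 to 6339 in heterozygotes (log2 difference 0.12, 0.0086 to 0.24, adjusted p = 0.785). Lsm8, of the nuclear LSm ring, was at 2819 to 2980.4 in wild types and 2524 to 2704 in heterozygotes (log2 difference -0.14, -0.27 to -0.010, adjusted p = 0.785). Of 24 genes of the Prpf19 complex and the catalytic steps, 9 above and 15 below 0, Ppil1, a cyclophilin gene, was at 938 to 1114 in wild types and 790.5 to 885 in heterozygotes (log2 difference -0.30, -0.50 to -0.10, adjusted p = 0.654). Snw1 was at 924 to 995 in wild types and 923 to 1179.7 in heterozygotes (log2 difference 0.13, -0.088 to 0.34, adjusted p = 0.861). Of 40 other regulators, 22 above and 18 below 0, Celf1 was at 3229 to 3293 in wild types and 3582 to 4019 in heterozygotes (log2 difference 0.21, 0.082 to 0.35, adjusted p = 0.644). Its paralogue Celf2 was at 388 to 510.1 in wild types and 322 to 364 in heterozygotes (log2 difference -0.30, -0.57 to -0.019, adjusted p = 0.785).

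The promoters of the members were read from the RefSeq table (GRCm38.p6), which gives 250 bases before to 50 after each start. It held 55 of the 62 genes, with 75 windows of 300 bases among 32851 in all; Hnrnpll, Hnrnpul2, Prpf18, Sf3b4, Sf3b5, Snrpb and U2af2 were not matched. Both strands were searched for 6 motifs. CCGGAAG, the core bound by ETS factors, was in 32.0% of the members' windows and 8.86% of all. The NRF1 motif, GCGC, any base and TGCGC, was in 21.3% of the members' windows and 4.60% of all. CCAAT was in 49.3% of the members' windows and 37.4% of all, CACGTG in 10.7% of the members' windows and 7.15% of all, TATAAA in 8.0% of the members' windows and 13.6% of all and TGACGTCA in 1.33% of the members' windows and 1.79% of all. The median GC content was 60% in the members' windows and 52.7% in all, and these shares were not tested. A match is a run of letters, not a site shown to be bound. The windows of Srsf2, the SR gene with the smallest p, and Sf3a2, lower in every heterozygote, are printed with the motifs in capitals, which overlap in neither; the NRF1 motif lies on the opposite strand in both.
Srsf2, chr11:116853045-116853344, minus strand: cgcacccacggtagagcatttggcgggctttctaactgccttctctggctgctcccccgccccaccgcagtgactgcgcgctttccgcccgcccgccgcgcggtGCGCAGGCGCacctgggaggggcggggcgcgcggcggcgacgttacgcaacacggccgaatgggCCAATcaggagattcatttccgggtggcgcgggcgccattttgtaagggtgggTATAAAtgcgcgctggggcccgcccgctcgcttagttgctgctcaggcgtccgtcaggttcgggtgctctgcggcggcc
Sf3a2, chr10:80798485-80798784, plus strand: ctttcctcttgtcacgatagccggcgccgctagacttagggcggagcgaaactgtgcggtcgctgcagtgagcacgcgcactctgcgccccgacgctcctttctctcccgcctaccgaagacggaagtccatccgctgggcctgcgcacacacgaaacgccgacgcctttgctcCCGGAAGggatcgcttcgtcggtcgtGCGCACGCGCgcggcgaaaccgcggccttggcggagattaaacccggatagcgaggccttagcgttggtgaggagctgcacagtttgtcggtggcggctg
Srsf2 holds the NRF1 motif, CCAAT and TATAAA, and Sf3a2 holds CCGGAAG and the NRF1 motif.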

How the data were processed

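RNA of each embryo (100 ng) was amplified and biotin-labelled in 2 cycles, and 20 µg of cRNA went on each array, per the labels' protocols. The deposited values are intensities, 1 per probe set and array on a linear scale; GCOS is named in the submitters' processing notes, without a version or algorithm. The values show a 2% trimmed mean of 150 on every array. Scan day and fluidics module come from instrument records, per the file headers.

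After 64 Affymetrix controls were left out, values became log2(signal + 1.87), 1.87 being their 10th percentile. Probe sets with a mean signal under 14.5, the dimmest 40%, were not tested. limma 3.58.1 under R 4.3.3 compared the genotypes on the other 27022 (linear model, moderated variances with a trend on intensity, no covariate), two-sided, and p-values were adjusted over all of them by Benjamini-Hochberg at 0.05. Genes were named by the platform annotation. On simulated data of this comparison (27022 probe sets) a 1.25-fold change was recovered in 4.90% of cases, 1.5-fold in 24.7%, 2-fold in 48.3% and 3-fold in 69.4%, with 4.05% false calls. The number of arrays limits the precision.

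The members and gene lists were chosen with earlier results of these data known. Genes named by rule were, in each family, the 2 higher and the 2 lower with the smallest p and the gene with the widest range over probe sets; the facial syndrome list; Snrpb, Snrpn, U2af1, U2af2, Prpf8 and Sf3b1; the higher and the lower gene with the smallest p of each other list; and Tcof1. Alternatives changed the pseudocount (to 1 or to the 25th percentile, 7.03), the scaling (quantile or equal medians), the filter (none or 60%), the prior (no trend), the weights of arrays, the blocks (replicate number or scan day), the arrays (each left out) and the gene summary (mean over probe sets). The first scan day alone, and every alternative for the family medians, were added after seeing the data.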

Additional observations from a re-analysis of the deposited data

How the results depend on the processing

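The counts of splicing probe sets and of other splicing genes called in limma were 0 under every alternative run (21 splicing probe sets at an unadjusted p under 0.05 as reported, and 4 to 23 over the alternatives). The smallest adjusted p among members ran from 0.194, without wild-type embryo 2, to 0.999, with equal array medians. Calls over the array moved more. Without the intensity trend 0 probe sets were called higher and 0 lower (1544 at an unadjusted p under 0.05). Higher calls were 10 with the replicate block, 10 for the first scan day and 8 to 18 with 1 array left out. Lower calls were 0 with the replicate block, 0 with scan day as a block, 2 with quantile normalization, 2 with the filter at 60%, 2 for the first scan day and 0 to 2 with 1 array left out. Same-numbered embryos did not deviate together (correlations -0.077, -0.11 and -0.024). With 3 arrays per genotype this cannot exclude a pairing by number, and the main comparison used none. With the replicate block the Tcof1 difference was -0.88 with an adjusted p of 0.186. It was -0.88 with scan day as a block (0.0933), -0.88 without the trend (0.416), -0.95 on the first scan day (0.209) and -0.95 to -0.77 with 1 array left out. Splicing probe sets without overlap were 11 with equal array medians, 65 on the first scan day, which holds 2 embryos per genotype, and 36 to 51 with 1 array left out. The shares over all tested probe sets were not counted under these settings, so these counts say nothing particular to splicing genes. The median over splicing genes was 0.020 to 0.070 with 1 array left out, 0.034 with quantile normalization and 0.042 with the mean over probe sets. That mean gave 0.063 for SR genes and -0.045 for SF3a and SF3b genes. Genes near 0 changed sign: U2af2 was 0.00056 with array weights, U2af1l4 was -0.00029 with equal array medians, and on the first scan day U2af1l4 was -0.034, Eftud2 -0.0063 and Srsf11 0.019. With 1 array left out, ranges that crossed 0 were -0.0069 to 0.087 for Eftud2, -0.076 to 0.041 for Hnrnpu, -0.12 to 0.20 for Prpf38b, -0.042 to 0.031 for Prpf4b, -0.025 to 0.042 for Snrpb, -0.15 to 0.0045 for Snrpc, -0.049 to 0.015 for Srsf11, -0.12 to 0.083 for Srsf9, -0.039 to 0.070 for Txnl4a, -0.063 to 0.077 for U2af1l4 and -0.066 to 0.044 for U2af2. The cause of these moves was not tested. With 3 arrays per genotype, most changes of 1.25-fold were missed in data simulated over all 27022 tested probe sets. Recovery for splicing probe sets alone was not simulated. Their median standard error was 0.10, against 0.19 for all tested probe sets.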
